A study of Homo sapiens with 3 samples.

Results

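The unfolded protein and amino acid stress genes are 37 genes of the integrated stress response and of the unfolded protein response of the endoplasmic reticulum (ER). The members were listed by name. All 37 were measured, out of 19775 genes with a probe set assigned to a single symbol, and each gene was represented by its brightest probe set by mean log2 signal. They were divided into an amino acid arm of 24 genes of the ATF4 type and an ER arm of 13 genes.

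The study compared 3 cultures of a human colorectal cancer cell line, with 1 Affymetrix expression array each. Where 3 signals of a gene follow each other below, they are in the order control, LATS2, LATS2N. The control cells carried an empty-vector virus, the LATS2 cells a virus for full length LATS2, a kinase of the Hippo pathway, and the LATS2N cells a virus for residues 1 to 625 of LATS2, a piece that stops short of the kinase domain. All cells were infected with a virus, were grown in DMEM with 10% fetal bovine serum at 5% CO2, and 6 ug of total RNA went into each labelling. The sample labels name the line SW620 while the series' design text names SW480, and whether a stable line was 1 clone or a pool is not given in the sources used here. The labels give no time point, and with 1 array per group no replicate spread, standard deviation or test between samples exists for any value below.

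The integrated stress response starts when kinases phosphorylate the translation factor eIF2, which lowers general translation and favours translation of ATF4, a transcription factor that raises genes of amino acid uptake and synthesis. EIF2AK3 (PERK), ERN1 (IRE1) and ATF6 sense unfolded protein in the ER and, through ATF4, spliced XBP1 and cleaved ATF6, raise chaperones and the machinery that removes misfolded protein. Growing tumour cells, those of the colon included, rely on these genes for the supply of amino acids and for the folding of secreted and membrane proteins. ATF4 protein is set largely by translation, XBP1 activity by splicing and ATF6 activity by cleavage, so the transcript signals below do not measure the activity of these factors.

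Stretches of some members' promoters are shown here because they hold the elements through which ATF6, XBP1 and ATF4 are known to act. RefSeq promoters (GRCh38.p14, 250 bases before to 50 bases after a gene's start) matched 33 of the 37 genes, 20 of the amino acid arm and 13 of the ER arm. The other 4 were PYCR1, SLC7A11, PSPH and SHMT2. The ER stress element was searched on both strands as CCAAT, then 9 bases of any kind, then CCACG. It was found in promoters of 5 of the 13 ER genes, in 0 of the 20 amino acid genes, and in 0.0916% of 27305 genes with a promoter. The capitals below mark the element, each stretch is read 5′ to 3′ on the gene's own strand, and HSP90B1 held it at 2 places.
HSPA5, chr9:125241371-125241429, minus strand: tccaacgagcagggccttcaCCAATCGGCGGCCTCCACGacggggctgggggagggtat
HSP90B1, chr12:103930196-103930254, plus strand: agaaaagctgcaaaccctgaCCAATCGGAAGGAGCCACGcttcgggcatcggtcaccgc
HSP90B1, chr12:103930301-103930359, plus strand: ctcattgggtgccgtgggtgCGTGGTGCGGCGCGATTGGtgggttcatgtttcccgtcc
CALR, chr19:12938364-12938422, plus strand: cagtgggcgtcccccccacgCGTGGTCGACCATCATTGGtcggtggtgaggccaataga
XBP1, chr22:28800583-28800641, minus strand: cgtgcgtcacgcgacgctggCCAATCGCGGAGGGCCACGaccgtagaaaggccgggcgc

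The element lies on the opposite strand in CALR and at the second place in HSP90B1. The fifth gene was PDIA6, where it precedes an alternative start inside the gene. The element was defined on promoters of ER chaperone genes, so its presence in this arm is no independent finding. The core of the C/EBP-ATF composite element, to which ATF4 binds with a C/EBP partner, was searched on both strands as TGATGNAA, where N is any base. It was found in promoters of 6 of the 20 amino acid genes, 1 of the 13 ER genes and 4.46% of all genes with a promoter. ASNS, CHAC1 and HERPUD1 held it before their start, with the core in capitals, on the opposite strand in the last pair.
ASNS, chr7:97872449-97872496, minus strand: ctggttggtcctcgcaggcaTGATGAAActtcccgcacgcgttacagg
CHAC1, chr15:40953242-40953289, plus strand: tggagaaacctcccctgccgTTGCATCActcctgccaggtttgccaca
HERPUD1, chr16:56931946-56931993, plus strand: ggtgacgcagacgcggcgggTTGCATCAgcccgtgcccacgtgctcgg

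The other 4 holders were CEBPG and SLC1A5, which held it before their start as well, and SLC3A2 and SLC7A1, which held it after theirs. A further word, TGACGTGG, known to be bound by XBP1 and ATF6, was in 1 promoter of the 33, that of ALDH18A1, and in 0.927% of all genes. A word in a promoter is a description of the sequence and shows no binding in these cells.

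Signals are on the MAS5 scale, where the trimmed mean of every array was 500.1. Signals below a floor of 50.5, the median of all signals, were raised to it before a ratio was taken. The markers of colon epithelium were present in part. Of 12 markers 9 lay above the floor on every array, while CDX1, LGALS4 and CEACAM5 lay below the floor on at least 1 array. These markers went in different directions. EPCAM read 16608, 18744 and 18756, while the cadherin CDH1 read 4421, 2792 and 3567, with log2 ratios to control of -0.66 and -0.31, and VIL1 read 5013, 3948 and 4666, with -0.34 and -0.10. By the brightest probe sets, the ratio of CDH1 on the LATS2 array, 1.58-fold below control, is larger than that of any stress gene against control. Dimmer probe sets of ATF5, ERN1, ATF6, STC2 and DNAJB9 gave larger ratios. Of 9 markers of other cell types 5 lay below the floor on every array. These were PTPRC and CD3E of leukocytes, COL3A1 and PDGFRB of fibroblasts and VWF of endothelium. COL1A1, also of fibroblasts, at 325, 596 and 607, lay above the floor on every array. PECAM1 of endothelium and ALB of hepatocytes did too, with log2 ratios to control of -0.74 and -0.46 on the LATS2 array and -0.64 and -0.60 on the LATS2N array, and their part in the results was not tested. In RNA of a whole culture, fewer cells of a type and less RNA per cell cannot be told apart. The summed signal of those 9 markers was 1011, 1092 and 1082. The probe sets of LATS2 itself showed no 2-fold difference: those above the floor read 206, 219 and 219, and 385, 377 and 409, and the others lay below it on every array. Which part of the transcript they read is not known here, so they do not check the labels, and a raised LATS2 transcript was not seen here. The ratio of 3-prime to 5-prime signal lay between 0.939 and 1.02 for GAPDH and between 1.68 and 1.85 for ACTB over the 3 arrays.

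All 37 stress genes were measured above the floor on all 3 arrays, and none differed 2-fold between any pair of arrays. Called genes are those whose floored signals differed at least 2-fold. The share of all genes called, among those that reached the floor, was 1.8% in LATS2 against control, 0.963% higher and 0.842% lower. It was 1.51% in LATS2N against control, 0.944% higher and 0.566% lower, and 1.59% in LATS2 against LATS2N, 0.592% higher and 1% lower. A count of 0 among 37 is near these backgrounds. At 1.5-fold 0 of 37 were past the limit in LATS2 against control, beside 10.3% of all genes, 5.85% higher and 4.41% lower. For LATS2N against control the count was 0 of 37, beside 8.13%, 4.86% higher and 3.27% lower. Between LATS2 and LATS2N it was 1 of 37, PPP1R15A, which was higher, beside 9.34%, 4.27% higher and 5.07% lower. The median fold between a member's highest and lowest array was 1.17, and over the 11534 genes that exceeded the floor on every array it was 1.21. Of the 37 members 21 had a signal of 2000 or more on their dimmest array, a range where ratios vary less between probe sets.

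**Figure D1:**
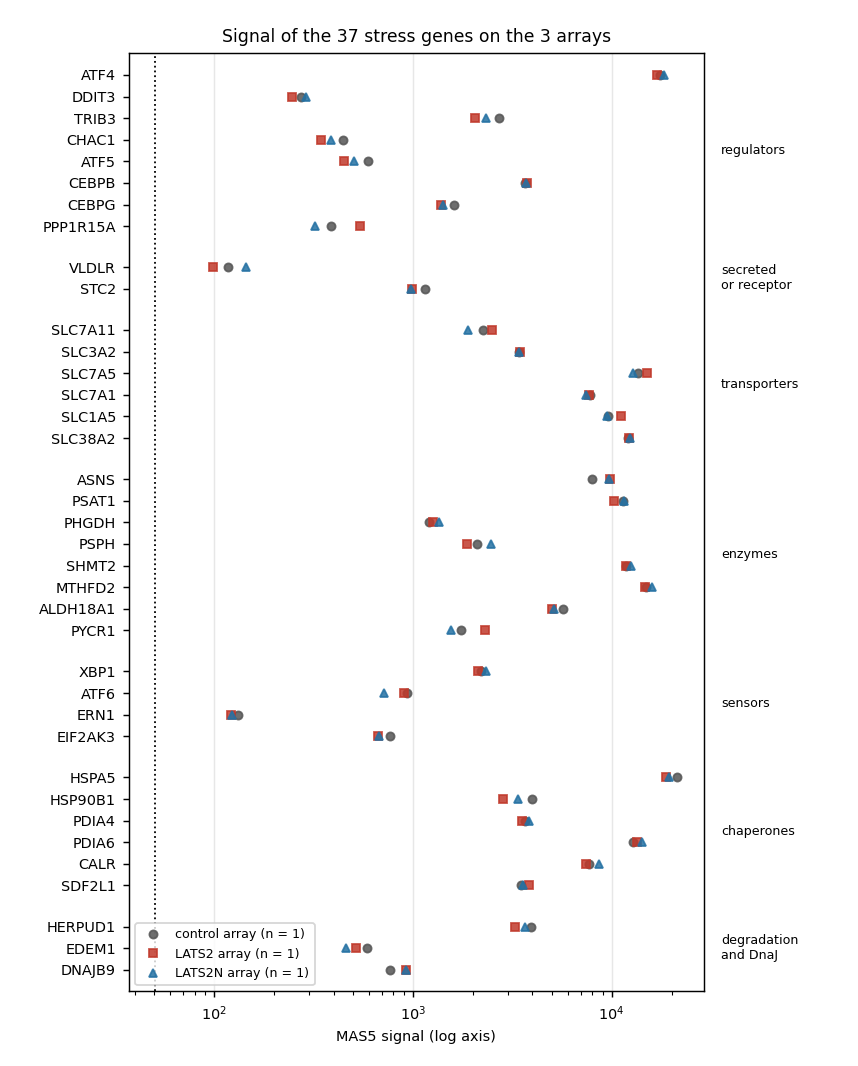
MAS5 signal (horizontal log axis) of each of the 37 stress genes on the control, LATS2 and LATS2N arrays, 1 array per group, grouped by role. The dotted line is the floor of 50.5, every gene lies above it, and the 3 points of most genes overlap or lie close together. Signals of different genes come from different probes and are not comparable with each other.

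A technical scale was taken from pairs of probe sets for the same gene, since the arrays give no replicates. The spread, the robust standard deviation of a log2 ratio estimated from such pairs, was 0.44 for LATS2 against control at a dimmer signal of 50 to 100 and 0.11 at 2000 or more. For LATS2N against control it was 0.46 and 0.08, and for LATS2 against LATS2N 0.48 and 0.09. It covers noise between probe sets and leaves out differences between cultures. At 2 spreads, a limit chosen after the values were seen, 5 of 37 members (13.5%) differed in LATS2 against control, beside 14.4% of all genes. Higher were ASNS and PYCR1, beside 8.64% of genes, and lower were TRIB3, HSP90B1 and HERPUD1, beside 5.81%. For LATS2N against control 6 of 37 (16.2%) differed, beside 14.3%. Higher were ASNS, PSPH and CALR, beside 8.23%, and lower were TRIB3, ATF6 and HSP90B1, beside 6.09%. Between LATS2 and LATS2N 9 of 37 (24.3%) differed, beside 16.2%. Higher on the LATS2 array were PPP1R15A, SLC7A11, SLC7A5, SLC1A5, PYCR1 and ATF6, beside 8.9%, and lower were PSPH, HSP90B1 and CALR, beside 7.35%. The first 2 shares are near the background, and the third was not tested. It depends on the probe set chosen. By the median over a gene's probe sets, PPP1R15A, HSP90B1 and CALR had log2 ratios of 0.18, -0.05 and -0.01 there, each under 2 spreads.

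**Figure D2:**
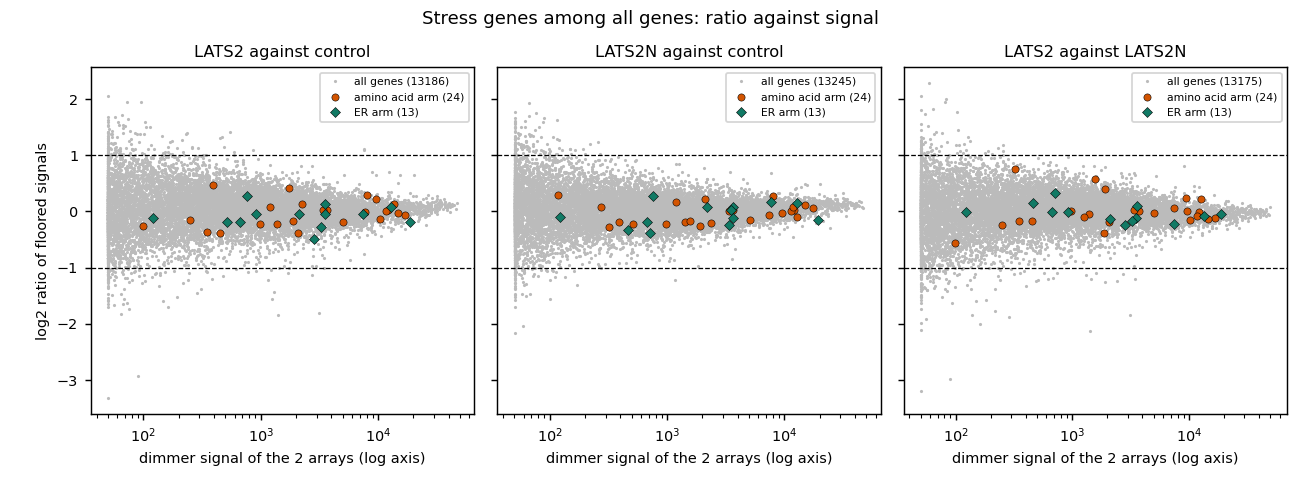
Log2 ratio of floored signals (vertical axis) against the dimmer of both signals (horizontal log axis) for all genes that reached the floor, in grey, with the 24 genes of the amino acid arm as circles and the 13 of the ER arm as diamonds. Dashed lines mark 2-fold, and no member lies beyond them in any of the 3 comparisons.

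The median log2 ratio of all 37 members was -0.05 in LATS2 against control, with 23 members below 0 and 14 above. Over all genes that median was 0.03, with 45.2% below 0. The members' median in LATS2N against control was -0.02, with 20 below 0, beside 0.02 and 46.4% over all genes. Between LATS2 and LATS2N it was -0.04, with 24 below 0, beside 0.01 and 47.7%. Both comparisons with control share the control array, and the third ratio is the difference of the first pair, so the values of a member in the 3 comparisons are not independent. With the arrays centred on their median signal, 27 members lay below 0 in LATS2 against control and 28 in LATS2 against LATS2N, where the medians over all genes turned to -0.02 and -0.03 as well.

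The medians of both arms lay close to 0. In LATS2 against control the amino acid arm had a median log2 ratio of -0.02, with 13 of 24 below 0, and the ER arm -0.05, with 10 of 13 below 0. In LATS2N against control the medians were -0.01 and -0.11, with 13 of 24 and 7 of 13 below 0. In LATS2 against LATS2N they were -0.03 and -0.05, with 14 of 24 and 10 of 13 below 0. Within each arm the members went in different directions, and the ratios against control ran from -0.39 to 0.47 in the amino acid arm and from -0.49 to 0.28 in the ER arm.

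Of the 8 regulators 6 lay below control in LATS2 cells and 5 in LATS2N cells, with median log2 ratios of -0.19 and -0.19. ATF4 itself, the central transcription factor, read 17541 in control, 16852 in LATS2 and 18250 in LATS2N cells. These signals lie within 1.08-fold of each other, less than 2 spreads at that brightness. DDIT3, the CHOP factor that favours cell death in lasting stress, read 275, 248 and 292, with log2 ratios to control of -0.15 and 0.09 and a spread of 0.27 and 0.22. Neither transcript stood apart on a construct array beyond its spread.

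TRIB3, a pseudokinase that ATF4 and CHOP induce and that dampens the response, read 2708 in control, 2064 in LATS2 and 2348 in LATS2N cells. It was highest on the control array, with log2 ratios of -0.39 and -0.21, at spreads of 0.11 and 0.08. Its other probe set gave -0.37 and -0.38. CHAC1, a glutathione-degrading enzyme induced by ATF4, read 445, 346 and 390, in the same order of arrays, with ratios of -0.36 and -0.19 at spreads of 0.27 and 0.22. ATF5, a relative of ATF4 under similar translational control, read 593, 453 and 509, with ratios of -0.39 and -0.22 at spreads of 0.27 and 0.16. Its second probe set above the floor gave larger ratios, -0.79 and -0.83, at signals of 303, 176 and 171. TRIB3, CHAC1 and ATF5 were thus each highest on the control array and lowest on the LATS2 array by their brightest probe sets, and the second probe sets of TRIB3 and ATF5 lay below control on the construct arrays too. For CHAC1 and for the brightest probe set of ATF5 the difference is under 2 spreads in both comparisons with control.

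The C/EBP partners were closer to control. CEBPB, a factor that ATF4 induces and pairs with, read 3671, 3736 and 3728. This was the narrowest range of any member by the brightest probe sets, at 1.02-fold. CEBPG, another C/EBP partner of ATF4, read 1618, 1382 and 1424, with ratios of -0.23 and -0.18. Its second probe set gave 0.15 and -0.09, so its direction on the LATS2 array differed between probe sets.

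PPP1R15A (GADD34) brings a phosphatase to eIF2 and so ends the response. By the brightest probe sets it had the widest range of any member, reading 390 in control, 542 in LATS2 and 322 in LATS2N cells. This is 1.68-fold higher on the LATS2 than on the LATS2N array, a log2 ratio of 0.75 at a spread of 0.24. The second probe set went the other way, at 185, 139 and 183, with a log2 ratio of -0.40 in the same comparison. Against control the ratios on the LATS2 array were 0.47 and -0.41 by the brightest and the second probe set. Over probe sets the median was 0.18 in LATS2 against LATS2N, so the single member past 1.5-fold rests on 1 of its 2 probe sets.

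Of the genes for a secreted product and a receptor, STC2, a stress-induced glycoprotein hormone, read 1148, 989 and 978 and lay below control on the construct arrays, with log2 ratios of -0.22 and -0.23. Its second probe set, at 781, 492 and 667, gave -0.67 and -0.23. VLDLR, a lipoprotein receptor that ATF4 induces, read 118, 98.6 and 145, with ratios of -0.26 and 0.30. It was 1.47-fold lower on the LATS2 than on the LATS2N array, a log2 ratio of -0.56 at a spread of 0.48, close to 1 spread.

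**Figure D3:**
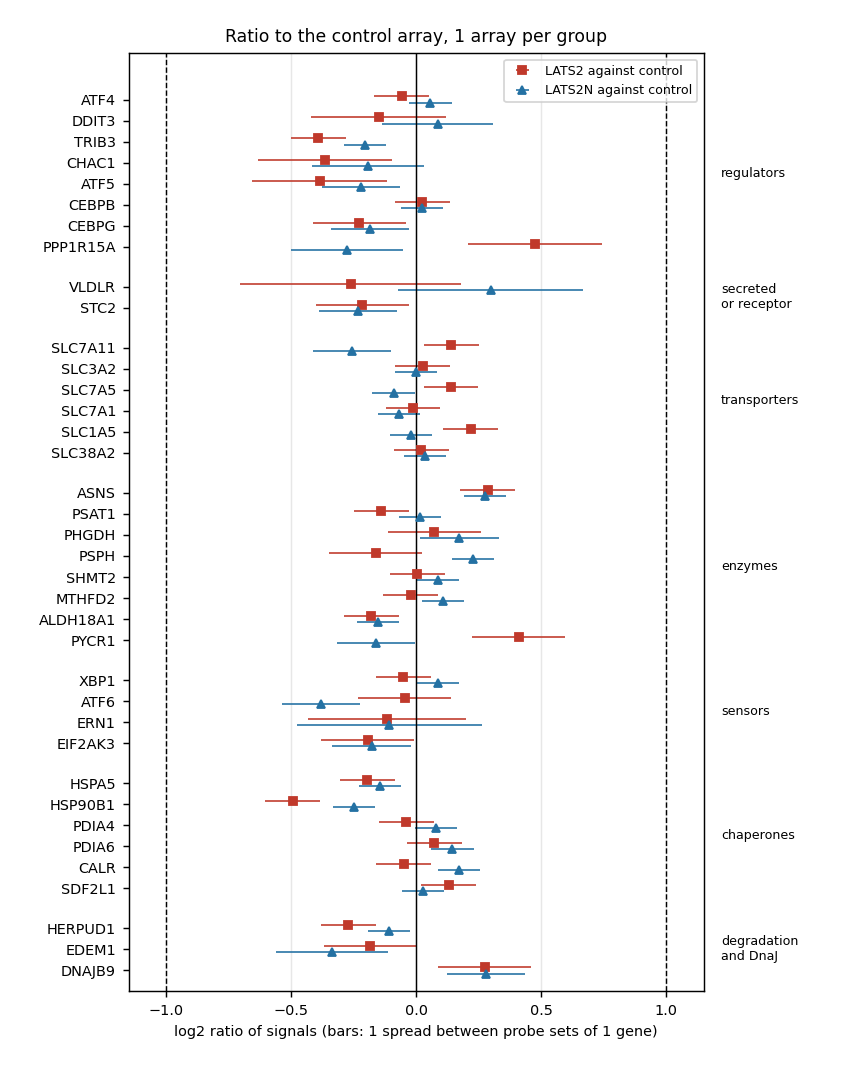
Log2 ratio to the control array (horizontal axis) of each stress gene on the LATS2 array (squares) and the LATS2N array (triangles), 1 array per group, grouped by role. Bars are 1 spread between probe sets of the same gene at that signal, not an error between cultures. Dashed lines mark 2-fold, and all points lie between -0.49 and 0.47.

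The amino acid transporters mostly read slightly higher on the LATS2 array than on the LATS2N array, without a 2-fold call. In that comparison 5 of 6 were above 0 with a median log2 ratio of 0.14, in LATS2 against control 5 of 6 were above 0 with a median of 0.08, and in LATS2N against control 5 of 6 were below 0 with a median of -0.04. With the arrays centred on their median, 3 of 6 were above 0 in LATS2 against control and 4 of 6 in LATS2 against LATS2N. With quantile normalization these counts were 4 and 5, and with the median over a gene's probe sets 5 and 4. Leaving out probe sets whose name suffix marks possible shared targets gave 2 of 3 above 0 in each.

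SLC1A5, a transporter of glutamine and other neutral amino acids, read 9607 in control, 11173 in LATS2 and 9463 in LATS2N cells. It was highest on the LATS2 array, with a log2 ratio of 0.22 to control and 0.24 to LATS2N at spreads of 0.11 and 0.09. SLC7A5 (LAT1), which takes up large neutral amino acids such as leucine, read 13623, 15009 and 12795, with ratios of 0.14 and -0.09 to control. SLC7A11 (xCT), which exchanges cystine for glutamate, read 2264, 2496 and 1896, again highest on the LATS2 array by its brightest probe set. Against control its 3 probe sets ran from -0.02 to 0.38 on the LATS2 array and from -0.43 to 0.30 on the LATS2N array. Its direction against control thus differed between probe sets. Its log2 ratio in LATS2 against LATS2N was 0.40 at a spread of 0.15, and its other probe sets gave 0.41 and 0.08.

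SLC3A2 (CD98), the heavy chain that SLC7A5 and SLC7A11 need at the cell surface, read 3408, 3470 and 3407. Its ratios to control were 0.03 and 0.00, closer to control than those of either light chain by the brightest probe sets. All of these ratios were under 2 spreads, and another probe set of SLC7A11 gave -0.02 on the LATS2 array. SLC7A1, a carrier of arginine and lysine, read 7805, 7739 and 7450, with ratios of -0.01 and -0.07, and its 5 probe sets ran from -0.47 to 0.19 in LATS2 against control. SLC38A2 (SNAT2), a carrier of small neutral amino acids that amino acid starvation induces, read 12041, 12213 and 12334, with ratios of 0.02 and 0.03.

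ASNS, asparagine synthetase and a standard target of ATF4, read 8004 in control, 9763 in LATS2 and 9693 in LATS2N cells. It lay above control on both construct arrays by more than 2 spreads, with log2 ratios of 0.29 and 0.28 at spreads of 0.11 and 0.08. The second probe set of ASNS lay below the floor on every array and gave no ratio. Because these ratios share the control array, a high or low reading there moves them together.

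The 8 enzymes went in different directions, with 4 below control in LATS2 cells, 2 in LATS2N cells and medians of -0.01 and 0.10. Within serine synthesis, PHGDH, which starts the pathway, read 1200.1, 1262 and 1353, with log2 ratios of 0.07 and 0.17 to control. PSAT1, the transaminase of the second step, read 11375, 10323 and 11490, with ratios of -0.14 and 0.01. PSPH, the phosphatase of the last step, read 2108, 1883 and 2469 and was lowest on the LATS2 array. In LATS2 against LATS2N its log2 ratio was -0.39 at a spread of 0.15, and its other probe sets gave -0.42 and -0.70, so all 3 went the same way.

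SHMT2 and MTHFD2, mitochondrial enzymes of one-carbon metabolism fed by serine, lay close to control. SHMT2 read 11751, 11783 and 12478, and MTHFD2 14873, 14645 and 16013. Their log2 ratios to control were 0.00 and -0.02 on the LATS2 array and 0.09 and 0.11 on the LATS2N array.

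The pair of proline synthesis enzymes differed from each other. PYCR1, the reductase that completes proline, read 1744 in control, 2318 in LATS2 and 1559.6 in LATS2N cells. It was highest on the LATS2 array, 1.33-fold above control and 1.49-fold above LATS2N, with log2 ratios of 0.41 and 0.57 at spreads of 0.19 and 0.15. ALDH18A1, which carries out the first steps, read 5682, 5020.1 and 5111, with ratios to control of -0.18 and -0.15 and a second probe set at -0.16 and -0.16. PYCR1 has 1 probe set here, so no second reading of its ratio exists, and the name suffix of that probe set marks possible shared targets.

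In the ER arm the sensors and their factors lay below control on the LATS2 array, with 4 of 4 below 0 and a median log2 ratio of -0.08, a direction that centring and quantile normalization kept. EIF2AK3 (PERK), the ER kinase that phosphorylates eIF2, read 767, 671 and 678, with ratios of -0.19 and -0.18, close to 1 spread of 0.19 and 0.16. ERN1 (IRE1), the kinase and nuclease that splices XBP1, read 132, 122 and 123, with ratios of -0.12 and -0.11 at spreads of 0.32 and 0.37. A further probe set of ERN1 gave -0.88 and -0.80, at signals of 116, 63.3 and 66.8.

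ATF6, the membrane-bound factor released by cleavage, read 935 in control, 906 in LATS2 and 718 in LATS2N cells. It had the lowest ratio to control of any member on the LATS2N array, a log2 ratio of -0.38 at a spread of 0.16. Of its 4 probe sets 3 lay below control there, with -0.38, -0.81 and -0.86, and the dimmest gave 0.27. XBP1, the factor that IRE1 activates, read 2200.5, 2124 and 2339, with ratios of -0.05 and 0.09, less than 2 spreads. The signal does not separate spliced from unspliced XBP1.

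The 6 ER chaperones were uneven, with 4 below control in LATS2 cells, 2 in LATS2N cells and medians of -0.04 and 0.05. HSP90B1 (GRP94), the ER member of the HSP90 family, read 3996 in control, 2836 in LATS2 and 3364 in LATS2N cells. By the brightest probe sets it had the lowest ratio of any member on the LATS2 array, 1.41-fold below control. The log2 ratio was -0.49 at a spread of 0.11, and -0.25 on the LATS2N array at a spread of 0.08. Its second probe set, at 291, 232 and 210, lay below control on the construct arrays as well, with -0.33 and -0.47. In LATS2 against LATS2N the probe sets differed in direction, at -0.25 and 0.14, and their median of -0.05 is under 2 spreads. The name suffix of both probe sets marks possible shared targets, so transcripts of related genes may add to them.

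HSPA5 (BiP), the main ER chaperone and the release switch of the sensors, read 21418, 18702 and 19363. It was highest on the control array, with ratios of -0.20 and -0.15 at spreads of 0.11 and 0.08, and -0.31 and -0.07 by its second probe set. CALR, a calcium-binding lectin chaperone, read 7703, 7439 and 8675, with ratios of -0.05 and 0.17. Its 3 probe sets ran from -0.38 to 0.17 in LATS2N against control, so its direction there depends on the probe set.

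PDIA4, a disulfide isomerase, read 3651, 3553 and 3860.1, with ratios of -0.04 and 0.08. PDIA6, another, read 12808, 13468 and 14165, with 0.07 and 0.15. Its 4 probe sets ran from -0.09 to 0.07 on the LATS2 array and from -0.08 to 0.15 on the LATS2N array. SDF2L1, a partner of BiP that ER stress induces, read 3503, 3834 and 3568, with 0.13 and 0.03. The 5 genes whose promoters held the ER stress element, HSPA5, HSP90B1, CALR, PDIA6 and XBP1, thus had ratios of -0.20, -0.49, -0.05, 0.07 and -0.05 in LATS2 against control, a range that includes 0.

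Genes that clear misfolded protein were also split. HERPUD1, a scaffold of ER-associated degradation, read 3944, 3269 and 3660.0, lowest on the LATS2 array, with log2 ratios of -0.27 and -0.11 at spreads of 0.11 and 0.08. EDEM1, which marks misfolded glycoproteins for removal, read 586, 516 and 464, lowest on the LATS2N array, with -0.18 and -0.34. DNAJB9 (ERdj4), a BiP cofactor and target of spliced XBP1, read 764, 925 and 928, with 0.28 and 0.28. Its other probe sets gave 0.19 and 0.25 on the LATS2 array and 0.82 and 0.33 on the LATS2N array, so all 3 lay above control.

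**Figure D4:**
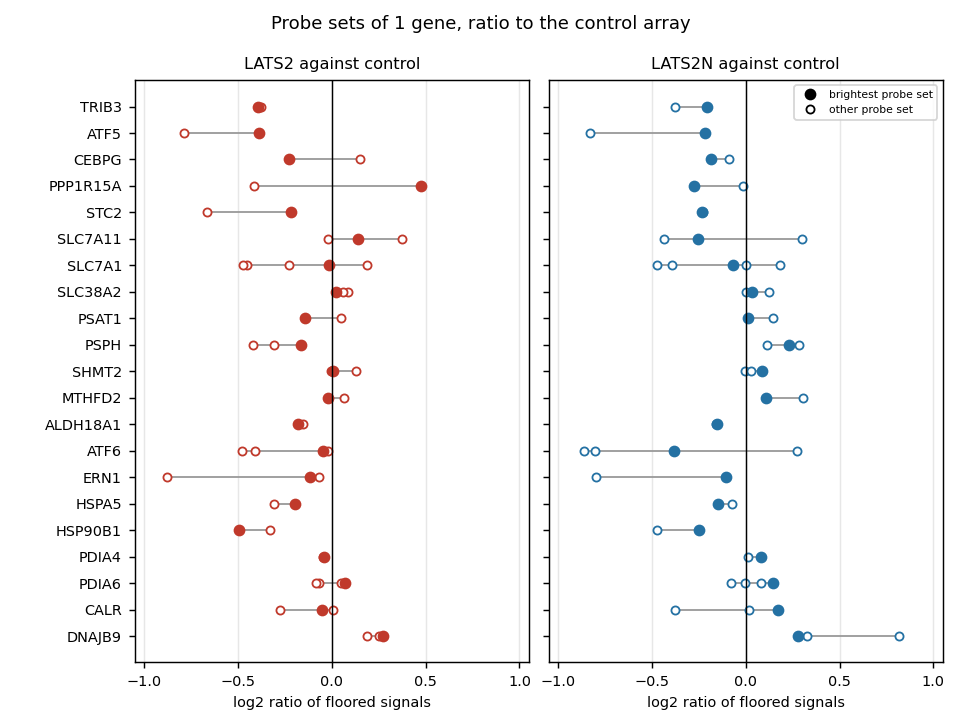
Log2 ratio of floored signals to the control array (horizontal axis) for each probe set of the 21 stress genes with 2 or more probe sets above the floor, LATS2 on the left and LATS2N on the right. Filled circles are the brightest probe set and open circles the others, and a line joins the lowest and highest of a gene. TRIB3, HSP90B1 and HSPA5 lie left of 0 in both panels, and PPP1R15A spans 0 on the LATS2 array.

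Probe sets of the same gene set the limit of these readings. The 37 members had 78 probe sets, of which 72 reached the floor on at least 1 array, and 21 members had 2 or more of these. In LATS2 against control all such probe sets of a gene went the same way for 12 of the 21 members, 10 below 0 and 2 above. In LATS2N against control 15 of 21 did, with 9 below and 6 above, and in LATS2 against LATS2N 8 of 21 did, with 7 below and 1 above. Members measured by a single probe set, such as ATF4, DDIT3, CHAC1, SLC1A5 and PYCR1, have no such second reading. Among the members past 2 spreads, the values of ASNS, PYCR1, SLC7A5, HSP90B1, CALR and HERPUD1 came from probe sets with a suffix for possible shared targets.

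Over the 3 arrays the members were lowest on the LATS2 array more often than on the others. The lowest of 3 signals was on the LATS2 array for 19 of 37 members, where it was for 30.6% of the 11534 genes. It was on the control array for 8 members, beside 38.2% of genes, and on the LATS2N array for 10, beside 31.3%. The highest signal was on the LATS2 array for 9 members, beside 39.8% of genes, on the control array for 14, beside 28.4%, and on the LATS2N array for 14, beside 31.8%. The order control, LATS2N, LATS2 from high to low held for 10 members, among them TRIB3, CHAC1, ATF5, HSPA5, HSP90B1 and HERPUD1, and for 14.9% of genes. By the second probe sets of TRIB3, ATF5 and HSP90B1 the lowest signal was on the LATS2N array. These counts use the brightest probe set of each gene and differences of any size, most of them under 2 spreads. No test exists for them.

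Beyond the members, 73 further genes of the same pathways were set beside them, and 67 of them were measured. In LATS2 against control 62 of these reached the floor, of which 0 were called higher and 2 lower, beside 0.963% and 0.842% of all genes. Of 63 in LATS2N against control 0 were called, beside 1.51% of all genes. Between LATS2 and LATS2N 0 were called higher and 2 lower, beside 0.592% and 1%. The median log2 ratios were -0.02, 0.01 and 0.00.

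All of these calls were in the sublist of other genes linked to ATF4. DDIT4, an inhibitor of mTORC1 that hypoxia and amino acid stress raise, read 10901 in control, 3117 in LATS2 and 11212 in LATS2N cells, 3.50-fold below control and 3.60-fold below LATS2N on the LATS2 array. It has a single probe set. VEGFA, an angiogenic factor induced by hypoxia as well as ATF4, read 1063, 481 and 779, 2.21-fold lower on the LATS2 array. ADM2, a peptide hormone gene, read 174, 87.5 and 207, 1.98-fold below control on the LATS2 array and 2.36-fold below LATS2N, where it was called. ADM2 has a single probe set too, and its spreads in these comparisons were 0.44 and 0.48. On the LATS2 array 11 of 13 genes of this sublist lay below control, beside 45.2% of all genes, with a median of -0.41. The 24 genes of the amino acid arm had a median of -0.02. Without probe sets of possible shared targets, which leaves out the DDIT4 and VEGFA values above, 6 of 7 lay below control with a median of -0.21, beside -0.10 for the 16 genes left of the arm. The difference was not tested, and the sublist was chosen with earlier results of these data known, so it is no independent finding.

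SESN2, a leucine sensor and stress gene, read 369, 229 and 249, with log2 ratios of -0.69 and -0.57. It was the lowest of the 67 on the LATS2N array, followed by UGGT1, a glycoprotein folding sensor, at -0.50 and VEGFA at -0.45. The highest were GDF15, a stress cytokine, with 0.84 and 0.77 at signals of 110, 198 and 188, then MBTPS1 and EDEM2 on the LATS2 array with 0.44 and 0.43, and SEC24D and EIF2B3 on the LATS2N array with 0.37 and 0.35. MBTPS1 is a protease that cleaves ATF6. The spreads of GDF15 were 0.32 and 0.37, and the name suffix of its probe set marks possible shared targets.

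Most tRNA synthetases, a classic group of ATF4 targets, lay slightly above control on the construct arrays. Of 11 measured, 9 were above 0 in each comparison with control, with median log2 ratios of 0.12 and 0.07 and none called. Over all genes 7227 of 13186 and 7103 of 13245 lay above 0, with medians of 0.03 and 0.02. At 2 spreads 1 and 2 of the 11 were higher, beside 8.64% and 8.23% of all genes, and 0 were lower. With quantile normalization 8 of 11 were above 0 in each, with medians of 0.14 and 0.04, and with arrays centred 8 and 9, with 0.07 and 0.07. The median over probe sets gave 7 of 11 in each, with 0.06 and 0.07, and leaving out shared-target probe sets gave 5 of 7 in each, with 0.07 and 0.06. The 28 measured other ER genes had medians of -0.01 and -0.01, and the 10 genes for eIF2 kinases, eIF2 itself, its exchange factor and a phosphatase subunit had -0.02 and -0.02.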

How the data were processed

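Expression was measured on 3 arrays, control, LATS2 and LATS2N, with 1 array per group. The authors deposited linear signal intensity values for 54675 probe sets, which the submitters' processing notes credit to MAS5, with no version or settings given in the sources used here. The values show scaling of each array to a common trimmed mean. The platform's probe table gave 1 symbol for 41091 probe sets, updated through gene identifiers to RefSeq (GRCh38.p14, 41037 matched), and the 1801 with several symbols were not used. The number of arrays limits the precision. Ratios, medians and size calls were computed in Python 3.11.15 with pandas 2.3.3 and numpy 2.4.6. Every member is given with its values or counts, each role group's highest and lowest member and all sensors and transcription factors are named with their signals, and of the wider lists the called genes and the 3 highest and lowest against control. A call of 1.5-fold, other floors, probe set rules and scalings were alternatives. Promoter sequences are RefSeq's. The members and lists were chosen with earlier results of these data known.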

Additional observations from a re-analysis of the deposited data

How the results depend on the processing

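No paired analysis was possible because each group has 1 array. Leaving out a replicate was not possible for the same reason. No member was called at 2-fold under any floor, probe set rule or scaling tried. At 1.5-fold 1 member was called higher in LATS2 against LATS2N, PPP1R15A of the amino acid arm, and 0 in the other comparisons. At 2 spreads, chosen after seeing the data, 2 members were higher and 3 lower in LATS2 against control (amino acid arm 2 and 1, ER arm 0 and 2), 3 and 3 in LATS2N against control (2 and 1, 1 and 2) and 6 and 3 in LATS2 against LATS2N (5 and 1, 1 and 2).

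The members' medians were small and moved with the settings. Without probe sets of possible shared targets, which leaves 26 members, they were -0.10 in LATS2 against control (amino acid arm -0.10, ER arm -0.10) and -0.0934 in LATS2N against control. In LATS2 against LATS2N the arms then had -0.0721 and -0.0122. With arrays centred on their median they were -0.10 in LATS2 against control (arms -0.0675 and -0.10) and -0.0901 in LATS2 against LATS2N (arms -0.0813 and -0.10). With the median over probe sets the ER arm had -0.12 in LATS2 against control, and all members -0.0153 in LATS2 against LATS2N. In LATS2N against control the floor at the 75th percentile gave -0.0445 for all members, -0.0445 for the amino acid arm and -0.0407 for the ER arm, and quantile normalization -0.0504 for all members and -0.0401 for the amino acid arm. Of 111 member ratios, 16 moved by more than 1 spread with the median over probe sets, and 12 of 78 did without shared-target probe sets. The other settings moved 1, that of ATF4 in LATS2N against control with quantile normalization (-0.03).

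Counts over all genes depended on the floor and the size of the call, since dim signals carry most calls. In LATS2 against control 127 genes were called higher and 111 lower. These were 814 and 949 with the floor lowered to the 25th percentile, 9 and 19 with it raised to the 75th, 1712 and 1999 with no floor, 772 and 582 at 1.5-fold, and 1139 and 766 at 2 spreads. In LATS2N against control 125 and 75 became 871 and 779, 0 and 1, 1729 and 1769, 644 and 433, and 1090 and 806 in the same order. In LATS2 against LATS2N 78 and 132 became 744 and 979, 0 and 20, 1670 and 1983, 563 and 668, and 1172 and 968.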
